A study of Mus musculus with 21 samples.

Results

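SRSF3 binding to RNA was compared between the chromatin and the nucleoplasm of P19 cells, a mouse embryonal carcinoma line. The members are all positions in the pooled SRSF3 lists of these 2 fractions, 870234 positions with 1768665 cDNAs in chromatin and 109400 positions with 315510 cDNAs in nucleoplasm. They come from 8 of the 21 samples of the series, 4 per fraction, and each fraction was deposited as 1 list of pooled replicates. Every sample expressed an SRSF3-GFP fusion (SRSF7-GFP in the samples of the other protein), so no group lacked a tagged protein. Which promoter drives the fusion and whether the cells are 1 clone were not stated in the labels. Cells were irradiated with ultraviolet light of 254 nm at 100 mJ/cm2, separated into fractions and taken through iCLIP, in which reverse transcription stops at the nucleotide joined to the protein. The labels name no drug. There is no spread between replicates to set a difference against, so no p-value is given, and every interval covers counting error only.

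SRSF3 is an SR protein, an RNA-binding protein with a serine/arginine-rich domain that takes part in splicing, 3′ end formation and export of mRNA. The chromatin fraction holds RNA polymerase with the transcripts still being made, so introns are well represented there. The nucleoplasm holds RNA already released from the template, among it spliced mRNA awaiting export and stable small nuclear RNAs. A pooled list shows where cDNAs were recovered, and more RNA cannot be told apart from more binding per RNA.

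The chromatin list was 5.61 times as deep in cDNAs and 7.95 times as long in positions as the nucleoplasm list. Positions carried a mean of 2.03 cDNAs in chromatin and 2.88 in nucleoplasm, and 70.4% and 68.1% of them carried a single cDNA. Values below are therefore shares of each list's own total. A share cannot go up at one place without going down elsewhere. Only positions past the authors' threshold were listed, so absence from a list does not mean absence of binding. The P19 label was looked at through 4 pluripotency genes, which carried few cDNAs: Pou5f1 had 45 in chromatin and 5 in nucleoplasm, Sox2 27 and 0, Nanog 5 and 0, and Lin28a 206 and 30.

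Positions were joined into loci where they lay within 10000 nt of each other on 1 strand in any of the series' 6 lists, so that a locus can hold more than 1 gene or a piece of one. The question was which bound RNAs took different shares of the chromatin and the nucleoplasm list. Of 22703 loci listed in either fraction, 6136 were listed in both, and 1778 held at least 50 cDNAs together and at least 10 in each list. A locus was counted as different when the whole interval of its ratio of shares lay beyond 2-fold. By that rule 305 of the 1778 loci (17.2%) were higher in chromatin and 562 (31.6%) were higher in nucleoplasm. The balance between these counts depends on depth. With the chromatin list thinned to the nucleoplasm total, 291 were higher in chromatin and 214 in nucleoplasm. With at least 200 cDNAs per locus the counts were 305 and 147, so neither direction can be called the more common one.

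cDNAs in loci of long span took a larger share of the chromatin list, and those in short loci a larger share of the nucleoplasm list. Spans are built from listed positions, of which chromatin has the most, so a span is not independent of how densely chromatin was listed. Loci spanning 100 kb or more held 15.1% of chromatin cDNAs and 1.31% of nucleoplasm cDNAs, an 11.5-fold difference in share (95% interval 11.2 to 11.9). Loci of 10 to 100 kb held 53.2% and 38.7%. The order turned for shorter loci, with 23.4% and 36.3% in those of 1 to 10 kb and 8.36% and 23.6% in those under 1 kb. Of the 65 compared loci of 100 kb or more, 56 were higher in chromatin and 0 in nucleoplasm, and the median log2 ratio of chromatin over nucleoplasm was 3.52. Of the 318 compared loci under 1 kb, 2 were higher in chromatin and 216 in nucleoplasm, with a median of -2.45. Median spans were 54.3 kb for the loci higher in chromatin and 3.58 kb for those higher in nucleoplasm. These counts and medians also depend on the filter. With at least 10 cDNAs needed in the shallower nucleoplasm list, a locus with few cDNAs enters mainly where its nucleoplasm share is high. All 305 loci higher in chromatin held at least 200 cDNAs, against 147 of the 562 higher in nucleoplasm. The class shares above use all loci and no such minimum. The share ratio for loci of 100 kb or more was 29.0 over positions with at least 3 cDNAs, 7.02 by number of positions and 8.18 with mitochondrial RNA and the 10 highest loci left out. It was 11.96 when chromatin was thinned to the nucleoplasm total and the loci were then joined anew. The cut at 3 cDNAs does not weigh alike on lists of unequal depth. At Prex2, a long locus named below, the highest position held 48 cDNAs in chromatin and 4 in nucleoplasm. Joined at gaps of up to 1000 nt, no locus reached 100 kb, and loci of 10 to 100 kb held 20.4% of chromatin and 6.20% of nucleoplasm cDNAs. The SRSF7 lists ran the other way in the classes under 100 kb, with 22.4% in chromatin and 14.7% in nucleoplasm under 1 kb, 42.9% and 30.8% at 1 to 10 kb, and 31.3% and 51.6% at 10 to 100 kb. At 100 kb or more they held 3.51% and 2.87%. Single loci weigh in these classes. The pre-ribosomal RNA locus, in the 1 to 10 kb class, alone held 19.7% of SRSF7 chromatin and 6.11% of SRSF7 nucleoplasm cDNAs. For SRSF3 it held 9.38% and 16.7%. The mitochondrial heavy strand, in the 10 to 100 kb class, held 0.177% of SRSF3 chromatin and 9.69% of SRSF3 nucleoplasm cDNAs. The class shares without these loci are not given here. The difference between the proteins was not tested.

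**Figure D1:**
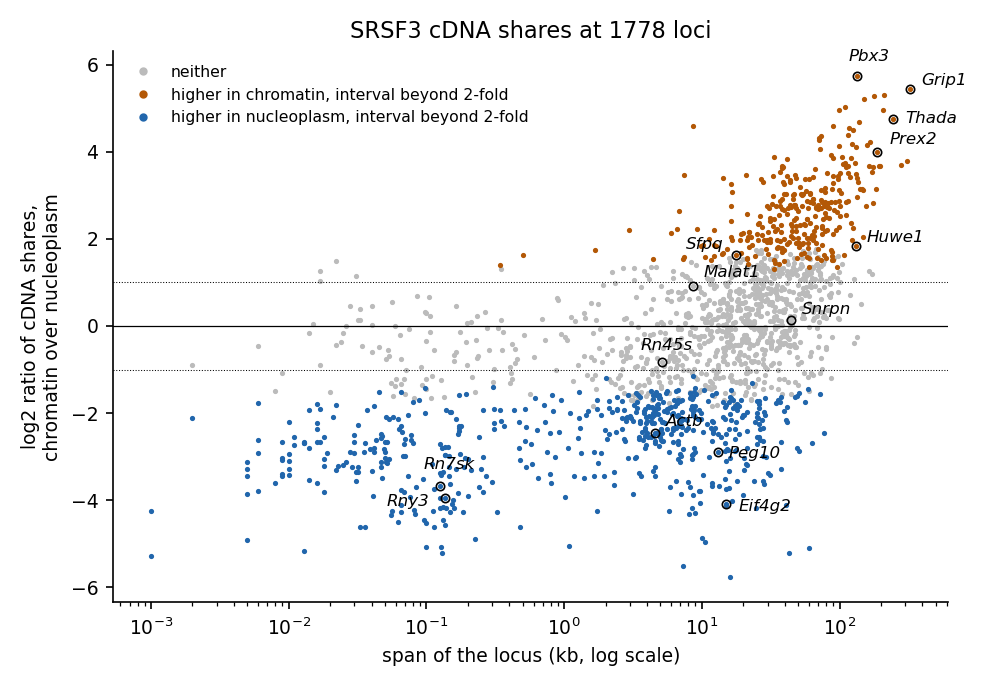
Each point is 1 of the 1778 compared loci, with its span in kb on a log axis and the log2 ratio of its cDNA share in chromatin over nucleoplasm. Orange and blue mark intervals beyond 2-fold in either direction, dotted lines stand at 2-fold, and circles mark loci that hold named genes, so that loci of 100 kb or more lie mostly above the line and loci under 1 kb mostly below it.

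Named long genes made up the top of the chromatin side. Gene names here rest on known mm9 positions. Among the 8 loci with the highest ratios, Pbx3, which encodes a homeodomain transcription factor, had 4814 cDNAs in chromatin and 16 in nucleoplasm, a log2 ratio of 5.75 (95% interval 5.05 to 6.55). Its chromatin cDNAs were spread over 3081 positions between 34094466 and 34227304 on the minus strand of chromosome 2, and no position held more than 11. Grip1 and Magi1, both scaffold proteins with PDZ domains, had 4413 against 18 and 5361 against 24 cDNAs, with log2 ratios of 5.45 and 5.32. Mid1 and Auts2 had log2 ratios of 5.21 and 4.96, and an unnamed locus, at 45092956 to 45191282 on chromosome 5 (minus strand), had 4.96. In each of these named or placed loci the nucleoplasm value rests on 10 to 24 cDNAs.

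The longest of the heavily bound loci showed the same order. Prex2, which encodes an exchange factor for Rac, held 21236 chromatin cDNAs (1.20% of the list) over 188 kb of chromosome 1, plus strand, 11056686 to 11244752, and 239 nucleoplasm cDNAs (0.0758%). Thada held 19018 (1.08%) and 126 (0.0399%) over 84602301 to 84846192 on chromosome 17 (minus strand). An unnamed minus-strand locus of chromosome 13, from 28679218 to 28989636, held 21145 and 274. Kcnj3, which encodes a potassium channel subunit, held 10405 and 189, and Huwe1, which encodes a ubiquitin ligase, held 8071 and 401. Prex2 and Huwe1 had log2 ratios of 3.99 (3.80 to 4.18) and 1.84 (1.70 to 1.99). By number of positions Huwe1 had 0.96 (0.78 to 1.14) and did not pass 2-fold. In Prex2 the densest 500 nt of the nucleoplasm list, nt 17 to 516, took 16.7% of nucleoplasm cDNAs and 2.88% of chromatin cDNAs. Picking the stretch from nucleoplasm counts favours that list. The densest 500 nt of the chromatin list, nt 9 to 508, took 15.5% of nucleoplasm and 3.11% of chromatin cDNAs. In Thada nt 0 to 499 was the densest in both lists and took 15.1% of nucleoplasm and 3.73% of chromatin cDNAs. Prex2 ranked 4th in chromatin, and Thada, Kcnj3 and Huwe1 were named after their values were seen.

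A further 1066 loci with at least 50 chromatin cDNAs were not listed in nucleoplasm at all, and together they held 10.9% of the chromatin list. Their median was 104 cDNAs, which at an equal share would amount to 18.6 cDNAs in the nucleoplasm list. The first of them was Kcnq3, a potassium channel gene, with 3570 chromatin cDNAs over 65943471 to 66118231 on chromosome 15 (minus strand). The 4 next held 1682 to 2564 chromatin cDNAs. No fold is given for these loci, since positions below the authors' threshold were not listed. Of all 18230 loci listed in chromatin at any count, 6136 were also listed in nucleoplasm. The number of all loci with at least 50 chromatin cDNAs is not given here. In the other direction 3 loci had at least 50 nucleoplasm cDNAs and none in chromatin. They held 124, 74 and 51 cDNAs, and the first lay at 44469017 to 44482288 on chromosome 19 (minus strand). Their median of 74 would amount to 414.8 chromatin cDNAs at an equal share. A minimum of 50 is thus a lower bar in the deeper chromatin list, and the counts of 1066 and 3 cannot be compared.

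The heavy strand of the mitochondrial genome had the lowest ratio of the compared loci with at least 200 cDNAs. The mitochondrial genome encodes 2 rRNAs, 13 mRNAs and 22 tRNAs, and their cDNAs were counted on the strand of each gene. In all, 3472 chromatin cDNAs (0.196%) and 30894 nucleoplasm cDNAs (9.79%) lay there, a 49.9-fold higher share in nucleoplasm (48.2 to 51.7). The SRSF3 cytoplasm list had 16.7% of its cDNAs there. The part of cytoplasmic RNA in the nucleoplasm fraction was not tested.

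The 3 classes of mitochondrial RNA differed in the ratio of their listed shares. The mRNAs had 40 chromatin cDNAs, 29 in ND4 and 11 in COX1, and 4543 in nucleoplasm, a 637-fold higher share (467 to 892). ND1, ND2, ND5, ND6 and CYTB had no listed chromatin cDNA, and positions below the authors' threshold were not listed. The fold is thus that of listed cDNAs only, and the interval does not cover the threshold. Alone, ND4 had a 96.5-fold (66.3 to 146) and COX1 a 405-fold (225 to 814) higher share in nucleoplasm. Of the 13 mRNA genes, 2 were listed in chromatin and 7 in nucleoplasm. COX2, ATP8, ATP6, COX3, ND3 and ND4L had no cDNA in any of the 3 SRSF3 lists. They lie in the stretch, given below, that no list covers. ND1 had 1026 nucleoplasm cDNAs, ND5 996, COX1 794, CYTB 700, ND4 499, ND2 422 and ND6 106. The rRNAs had 2271 and 25578 cDNAs, a 63.1-fold higher share in nucleoplasm (60.5 to 65.9). The large rRNA, mt-Rnr2, alone had 22509 nucleoplasm cDNAs, 72.9% of all mitochondrial cDNAs of that list, against 1594 or 45.9% in chromatin. By number of positions this order turned, with a share of mitochondrial positions in nucleoplasm minus that in chromatin of -16.5 points. There mt-Rnr2 had 267 positions in chromatin and 474 in nucleoplasm, and a position counts once however many cDNAs it holds. The small rRNA, mt-Rnr1, had 3069 and 677. The tRNAs had 1135 chromatin and 721 nucleoplasm cDNAs, only a 3.56-fold higher share in nucleoplasm (3.24 to 3.91).

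Mitochondrial cDNAs in chromatin thus had another makeup from those in nucleoplasm. tRNAs made up 32.7% of them in chromatin (31.1 to 34.3) and 2.33% in nucleoplasm (2.17 to 2.51), and mRNAs made up 1.15% and 14.7%. In cytoplasm tRNAs made up 29.5% and mRNAs 20.9%. TrnF had 161 chromatin and 44 nucleoplasm cDNAs, a 1.53-fold higher share in nucleoplasm (1.07 to 2.15). TrnM had 123 and 50, a 2.28-fold higher share (1.61 to 3.19). TrnV, which lies between the rRNAs, had 156 and 294, a 10.6-fold higher share (8.67 to 12.9). TrnT, with 57 chromatin cDNAs, and TrnH, with 8, were not listed in nucleoplasm. No cDNA lay on the opposite strand of any gene in either list. On the heavy strand no position between nt 6391 and nt 10996 was listed in any of the 6 lists, a stretch of 4604 nt with 10 whole heavy-strand genes, for which no level can be given.

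**Figure D2:**
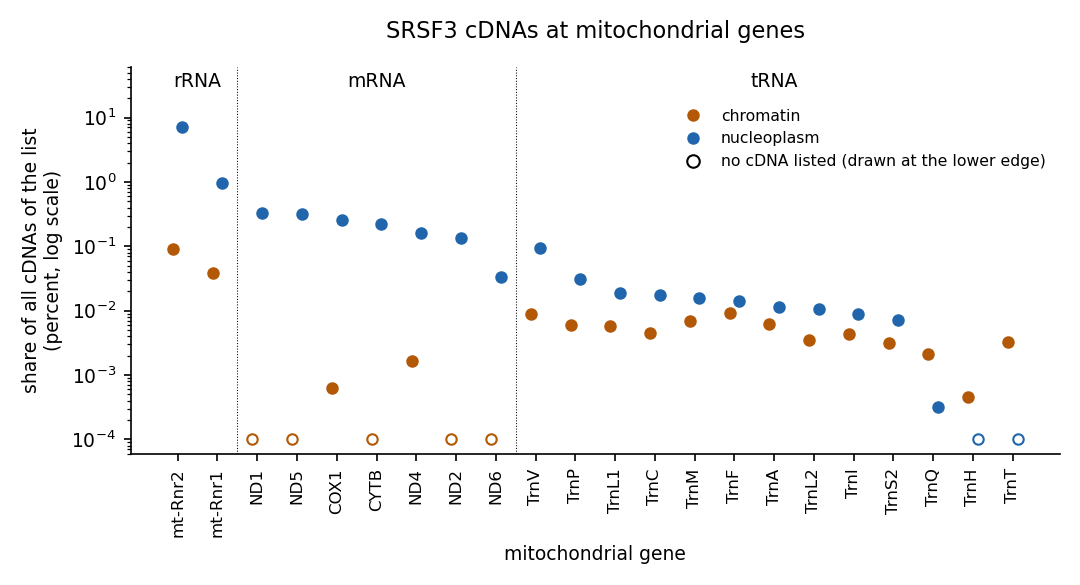
Each pair of points is 1 mitochondrial gene, with its share of all cDNAs of the chromatin (orange) or nucleoplasm (blue) list in percent on a log axis, grouped into rRNAs, mRNAs and tRNAs. Nucleoplasm lies far above chromatin for the rRNAs and mRNAs and close to it for most tRNAs, and open circles mark genes with no listed cDNA.

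Pre-ribosomal RNA, which is cut from a long precursor into the rRNAs of the cytoplasmic ribosome, was the largest locus in both lists. It lies on chromosome 17 (plus strand), from 39979938 to 39985047, is known as Rn45s and stands here for a repeat with many copies. It held 165908 chromatin cDNAs (9.38%) and 52606 nucleoplasm cDNAs (16.7%), a log2 ratio of -0.83 (-0.84 to -0.82), which is within 2-fold. By number of positions its log2 ratio was -2.59 (-2.67 to -2.51), beyond 2-fold. A position counts once, and 3007 chromatin and 2281 nucleoplasm positions were listed within 5110 nt, so this count can level off. The Rn45s cDNAs of the 2 lists lay in different parts. The first 4000 nt, about the length of the 5′ external spacer that is removed during processing, held 75.3% of the chromatin cDNAs (75.1 to 75.5) and 32.0% of the nucleoplasm cDNAs (31.6 to 32.4). The rest, towards the 18S rRNA, held 24.7% and 68.0%. As a share of the whole list the first part was 1.32-fold higher in chromatin and the rest was 4.90-fold higher in nucleoplasm.

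At nt 1200 to 2199 of the pre-rRNA the lists stood far apart. Chromatin had 23890 cDNAs there at 424 positions, 14.4% of its Rn45s cDNAs, and nucleoplasm had 11 cDNAs at 3 positions, 0.0209%. The position 39981679 held 625 cDNAs in chromatin and was not listed in nucleoplasm. The highest position of the chromatin list, 39982254, held 1343 in chromatin and 254 in nucleoplasm, while the highest of the nucleoplasm list, 39984604, held 281 and 1073. SRSF7, another SR protein mapped in the same way, had its Rn45s cDNAs arranged alike, with 76.2% in the first 4000 nt in chromatin and 33.8% in nucleoplasm, and 18.4% and 2.29% at nt 1200 to 2199. The total ran the other way there, 19.7% of SRSF7 chromatin cDNAs and 6.11% of SRSF7 nucleoplasm cDNAs. The 4000 nt limit and the stretch of 1000 nt were chosen after the profile was seen.

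**Figure D3:**
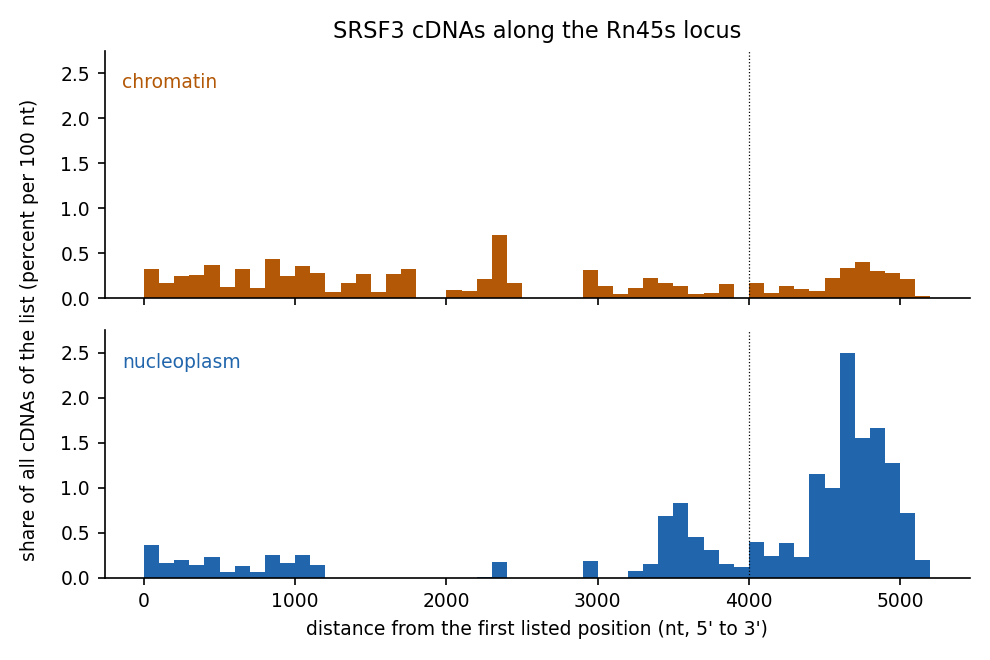
Bars give the share of all cDNAs of the list in percent per 100 nt along the Rn45s locus, chromatin above and nucleoplasm below on the same scale, with a dotted line at 4000 nt. Chromatin cDNAs are spread over both sides of the line, nucleoplasm cDNAs gather to the right of it, and almost none are listed in nucleoplasm between 1200 and 2200 nt.

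Of 4 short noncoding RNAs that were named, 7SK, Rny3 and Rmrp were higher in nucleoplasm beyond 2-fold, as were 31.6% of all compared loci and 216 of the 318 compared loci under 1 kb. 7SK (Rn7sk), the RNA that holds the elongation factor P-TEFb inactive, had 2884 chromatin cDNAs (0.163%) and 6541 nucleoplasm cDNAs (2.07%), a log2 ratio of -3.67 (-3.73 to -3.60). These fell at 118 and 119 positions of a stretch of 121 nt, 78023138 to 78023258 on chromosome 9 (minus strand), and the highest positions of the lists lay 18 nt apart. The Y RNA Rny3, a component of Ro ribonucleoproteins, had 516 and 1425 cDNAs, a log2 ratio of -3.95 (-4.10 to -3.81). Rmrp, the RNA of RNase MRP, had 2494 and 1655 cDNAs, a log2 ratio of -1.90. Snord118, the U8 snoRNA that acts in rRNA maturation, had 8061 and 2289, a log2 ratio of -0.67, and did not pass 2-fold. Position 68886932 on chromosome 11 was the highest of Snord118 in both lists, with 924 chromatin and 662 nucleoplasm cDNAs, 11.5% and 28.9% of the gene's total. Rny3, Rmrp and Snord118 were named after their values were seen.

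Eif4g2, which encodes a translation initiation factor, ranked 3rd in nucleoplasm. It held 7023 nucleoplasm cDNAs (2.23%) and 2303 chromatin cDNAs (0.130%) between 118211535 and 118226516 on the minus strand of chromosome 7, a log2 ratio of -4.10 (-4.16 to -4.03). Nearly all of them lay in a single short stretch. The densest 200 nt of the nucleoplasm list, nt 6703 to 6902 from the 5′ end of the locus, held 6807 nucleoplasm cDNAs (96.9% of the locus) and 1673 chromatin cDNAs (72.6%). Its share was 22.8-fold higher in nucleoplasm (21.6 to 24.1). The rest of the gene had 216 and 630 cDNAs, a 1.92-fold higher share in nucleoplasm (1.64 to 2.25). The highest position was 118219630 in both, with 316 cDNAs in nucleoplasm and 93 in chromatin. RefSeq lists a snoRNA gene, LOC115486847, inside Eif4g2, and whether the stretch is that snoRNA was not tested.

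**Figure D4:**
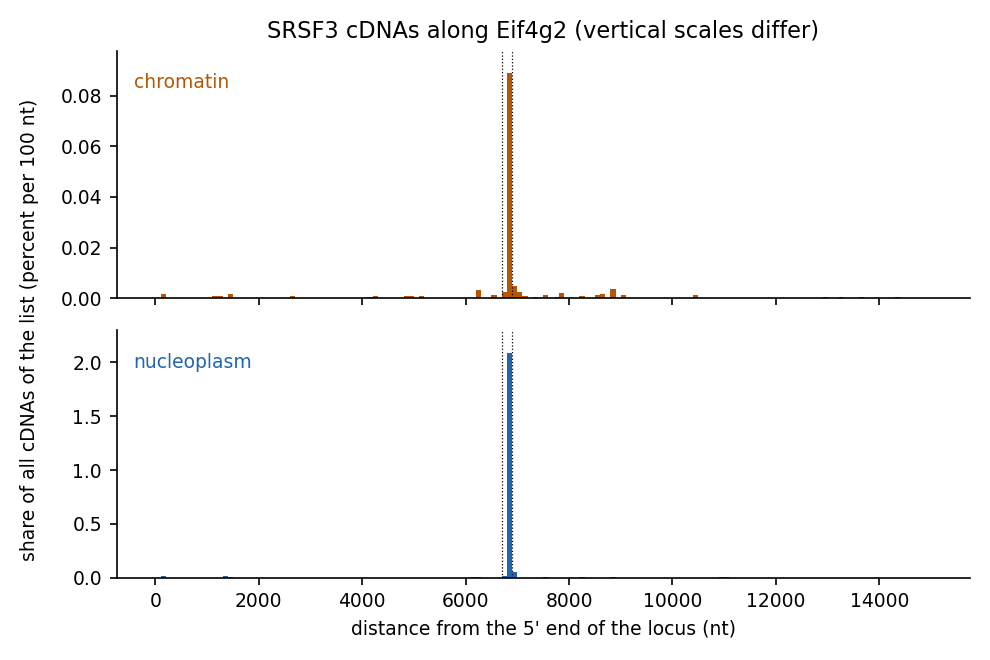
Bars give the share of all cDNAs of the list in percent per 100 nt along Eif4g2 from its 5′ end, chromatin above and nucleoplasm below, on vertical scales that differ. Dotted lines bound nt 6703 to 6902, where both lists have their single high peak.

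Of the other loci with the lowest ratios and at least 200 cDNAs, 5 were left unnamed. They had 38 to 68 chromatin cDNAs and 167 to 215 nucleoplasm cDNAs. The lowest, at 45885147 to 45885259 on chromosome 19 (minus strand), had 38 and 167, a log2 ratio of -4.62. A locus of 454 nt at 108872978 to 108873431 on chromosome 11 (minus strand) ranked 5th in nucleoplasm with 4777 cDNAs (1.51%) and had 15931 in chromatin (0.901%), within 2-fold.

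Genes of set roles were followed through a list of 20, of which 14 had enough cDNAs to compare. Sfpq was higher in chromatin, and Rn7sk, Eif4g2, Actb and Eef1a1 were higher in nucleoplasm, that is 1 and 4 of 14 where 17.2% and 31.6% of all compared loci were. The median log2 ratio of the 14 was -0.67, against -0.37 over all 1778 loci. The remaining 9 did not pass 2-fold in either direction.

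Among long nuclear noncoding RNAs, Malat1, an RNA of nuclear speckles where splicing factors gather, ranked 2nd in chromatin. It had 34390 cDNAs in chromatin (1.94%) and 3224 in nucleoplasm (1.02%), a log2 ratio of 0.93 (0.88 to 0.98). Counted by listed positions, 2427 and 958, its log2 ratio was -1.65, so the direction depends on what is counted. A position counts once however many cDNAs it holds. A ratio by positions can therefore run low at an RNA that is densely listed in the deeper chromatin list. Neat1, the scaffold of paraspeckles, had 54 and 4 cDNAs. The imprinted Meg3 had 43 and 21, a log2 ratio of -1.45 (-2.24 to -0.63) that did not pass the rule, and Rian had 7 and 0. The Snrpn region, an imprinted unit that carries snoRNAs, ranked 3rd in chromatin with 23933 cDNAs (1.35%) and had 3882 in nucleoplasm (1.23%), a log2 ratio of 0.14 (0.09 to 0.19), which turned to -1.28 by number of positions. Gas5, whose introns carry snoRNAs, had 7813 and 1709, a log2 ratio of -0.29 (0.23 over positions with at least 3 cDNAs). Its densest 500 nt in nucleoplasm, nt 392 to 891, held 47.2% of nucleoplasm and 26.8% of chromatin cDNAs. In chromatin the densest were nt 2574 to 3073, with 31.9% of chromatin and 20.7% of nucleoplasm cDNAs. Each stretch was picked from these counts, which favours the list it was picked in.

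Of 3 genes of RNA-binding proteins, only Sfpq passed 2-fold. Srsf3, the gene of the protein mapped here, had 6168 chromatin cDNAs (0.349%) and 1560 nucleoplasm cDNAs (0.494%), a log2 ratio of -0.50 (-0.58 to -0.42), which turned to 0.39 over positions with at least 3 cDNAs. Its densest 500 nt differed between lists. In chromatin these were nt 7106 to 7605, with 27.7% of chromatin and 25.5% of nucleoplasm cDNAs. In nucleoplasm they were nt 6078 to 6577, with 28.5% of nucleoplasm and 14.5% of chromatin cDNAs. SR protein genes are known to carry a poison exon through which the protein limits its own mRNA, and these stretches were not matched to exons. Srsf7 had 1517 and 164 cDNAs, a log2 ratio of 0.72 (0.49 to 0.96), or -0.53 by number of positions, with the densest stretches of both lists at nearly the same place, from nt 2331 and nt 2327. Sfpq, which encodes a protein of paraspeckles, had 2421 and 139, a log2 ratio of 1.64 (1.39 to 1.89), but 0.60 (0.30 to 0.91) by number of positions, where it did not pass 2-fold.

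Abundant mRNAs differed among themselves. Actb, which encodes beta-actin, had 370 chromatin and 364 nucleoplasm cDNAs, a log2 ratio of -2.46 (-2.68 to -2.25). Its nucleoplasm cDNAs gathered towards the 3′ end of a listed extent of 4008 nt. The densest 500 nt of the nucleoplasm list, nt 3050 to 3549, held 79.1% of nucleoplasm and 32.7% of chromatin cDNAs. The densest of the chromatin list, nt 2064 to 2563, held 42.7% of chromatin and 13.5% of nucleoplasm cDNAs. Each stretch was picked from these counts, which favours its own list. Eef1a1, which encodes a translation elongation factor, had 791 and 368, a log2 ratio of -1.38 (-1.56 to -1.20). Over positions with at least 3 cDNAs it had -0.93 (-1.18 to -0.67) and no longer passed 2-fold. Its densest stretch, nt 736 to 1235, was the same in both lists. Hsp90ab1, a chaperone gene, had 344 and 148, a log2 ratio of -1.27 (-1.55 to -0.98), just short of the rule. Gapdh had 428 cDNAs in chromatin (0.0242%, 0.0220 to 0.0266) and 8 in nucleoplasm (0.00254%, 0.00109 to 0.00500). These intervals do not overlap, but 8 cDNAs fall short of the minimum of 10, so the gene was not among those compared. Peg10, an imprinted gene derived from a retrotransposon and named after its values were seen, had 2235 and 2960, a log2 ratio of -2.89 (-2.97 to -2.81). The snoRNA hosts Snhg1 and Zfas1, also named afterwards, had log2 ratios of 0.14 and -0.82, and Snhg1 turned to -1.62 by number of positions and to -0.22 with mitochondrial RNA and the 10 highest loci left out.

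Where nucleoplasm cDNAs remained on long loci, more of them lay at the 3′ end on average. Over the 1015 compared loci of at least 10 kb, divided into 5 equal parts, the last part held a mean of 18.7% of a locus's cDNAs in chromatin and 32.0% in nucleoplasm. The first part held 25.4% and 26.7%, and the 3 middle parts held less in nucleoplasm. The mean difference in the last part was 13.4 percentage points and the median 1.07, with 520 loci higher and 436 lower in nucleoplasm. In the 291 of these loci that were higher in chromatin, the mean was 13.6 and the median -0.77, so the mean comes from a part of the loci. Many loci had few nucleoplasm cDNAs, and a single cDNA weighs heavily in such a share. This profile was computed after other results were seen.

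At the level of single positions, 57.7% of nucleoplasm positions (57.4 to 58.0) had a chromatin position no more than 5 nt away on their strand, and 35.0% were the same nucleotide. The share grew with the number of cDNAs, from 51.6% of positions with 1 cDNA to 89.8% of those with 21 or more. In the other direction 9.93% of chromatin positions lay near a nucleoplasm position, from 6.92% at 1 cDNA to 82.7% at 21 or more. By cDNAs these shares were 75.2% of nucleoplasm and 31.1% of chromatin. Such shares depend on the length of the other list. The chromatin list has 7.95 times as many positions, so the 2 directions cannot be compared. With chromatin thinned to the nucleoplasm total, 41.4% of nucleoplasm positions lay near a chromatin position. Positions of the 2 lists joined at gaps of up to 30 nt gave 19918 clusters with a nucleoplasm position, of which 9275 (46.6%) also held a chromatin position. These are 6.24% of the 148747 clusters with a chromatin position, yet they held 39.5% of chromatin cDNAs and 84.0% of nucleoplasm cDNAs. After the same thinning, 37.1% of clusters with a nucleoplasm position also held a chromatin position.

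**Figure D5:**
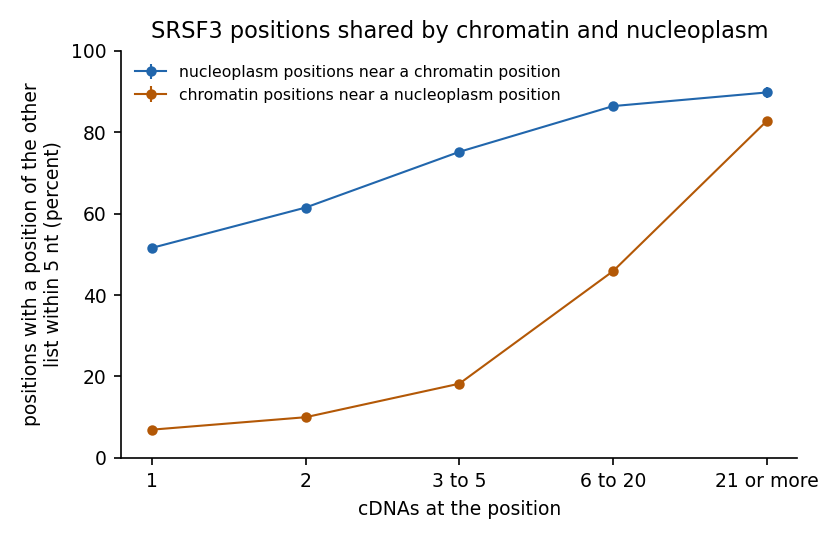
Points give the percent of positions that have a position of the other list within 5 nt, by the number of cDNAs at the position, with exact 95% intervals that are mostly smaller than the points. Blue is nucleoplasm against chromatin and climbs from 51.6% to 89.8%, and orange is chromatin against nucleoplasm and climbs from 6.92% to 82.7%.

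The share of a locus's cDNAs at its highest position was larger in nucleoplasm where nucleoplasm had fewer cDNAs. Such a share tends to go up when few cDNAs are counted, and the compared loci had a median of 37 cDNAs in nucleoplasm and 158.5 in chromatin. The highest position held a median of 13.3% of a locus's cDNAs in nucleoplasm and 6.67% in chromatin, and the median of the differences was 4.49 percentage points. That difference was 10.1 points in the loci higher in chromatin, where nucleoplasm had a median of 21 cDNAs, and 0.102 points in those higher in nucleoplasm, where the medians were 60 and 53 cDNAs. With each locus thinned to the lower of its 2 counts, the median difference was 2 points over all compared loci, with 1020 higher, 424 lower and 334 equal in nucleoplasm. It was 5.56 points in the loci higher in chromatin and 0 in those higher in nucleoplasm. Among 304 loci with at least 100 cDNAs in each list, the highest positions of both lists lay within 5 nt of each other in 116 (38.2%, 32.7 to 43.9). They did so in 53 of 108 loci higher in nucleoplasm and in 2 of 31 higher in chromatin, whose median spans were 4.88 kb and 58.9 kb.

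The chromatin to nucleoplasm order at a locus was only loosely alike for SRSF7, whose lists come from 3 pooled replicates each. Of 915 SRSF7 loci compared, 14.2% were higher in chromatin and 21.5% in nucleoplasm. Across the 710 loci compared for both proteins the log2 ratios had a Pearson r of 0.18 and a Spearman rho of 0.17, as a description over loci that share libraries. Of the 172 with SRSF3 higher in chromatin, SRSF7 was higher in chromatin in 21, higher in nucleoplasm in 28 and within the rule in 123. Of the 208 with SRSF3 higher in nucleoplasm, these counts were 7, 60 and 141. Magi1, Grip1 and Auts2 passed 2-fold towards chromatin for both proteins, with SRSF7 log2 ratios of 2.09, 2.04 and 2.07. The other named genes higher in chromatin for SRSF3 did not. Prex2 (0.93), Pbx3 (0.45), Kcnj3 (0.43), Huwe1 (0.32), Thada (0.27) and Mid1 (-0.95) passed in neither direction for SRSF7. Sfpq (-1.52) passed towards nucleoplasm.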

How the data were processed

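Replicates were pooled by the authors, who deposited for every group a list of single nucleotides with a signed whole-number score. Its size was taken as the cDNA count and its sign as the strand. The authors listed positions with a false discovery rate below 0.05 against 100 permutations in a 15 nt neighbourhood, per the file headers; the build is mm9 (submitters' processing notes), and coordinates are printed 1-based. The aligner and the treatment of duplicates and repeats, which can move counts in short repeated RNAs, were not stated in what was read.

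Shares of each list's total carry exact Clopper-Pearson intervals and ratios carry conditional exact binomial intervals (95%, counting error only). Locus ratios were first tested on simulated data. The deposited values are cDNA counts past a threshold, so totals are not library depths.

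The loci, gene lists and rules were chosen with earlier results of these data known. Named were the 5 loci with the highest share in each list, 8 ratios from either end among loci past 2-fold with at least 200 cDNAs, the 5 and 3 largest loci of 1 list only, the 5 highest positions, and a gene list; some of these loci are not reported here. Gene names rest on known mm9 positions, since no mm9 annotation was used. RefSeq (GRCm38.p6) holds 35 of 36 names, all 35 on the same chromosome, and all 22 with a strand on the same strand. Mitochondrial genes come from RefSeq, whose mitochondrial record mm9 shares. No sequence was printed. Alternatives are given at the end. Software was scipy 1.17.1, numpy 2.4.6, pandas 2.3.3 and Python 3.11.15, with matplotlib 3.10.9 for plots.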

Additional observations from a re-analysis of the deposited data

Results flagged for a closer look

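At 6 of the 36 named genes the ratio of chromatin over nucleoplasm met a rule for opposite directions in SRSF3 and SRSF7. By that rule both intervals were clear of 0 on the log2 scale and at least 1 lay beyond 2-fold. Srsf7 (0.72 for SRSF3 and -0.85 for SRSF7) and Snhg1 (0.14 and -0.55) also ran in opposite directions, with intervals clear of 0 but within 2-fold. So did Lin28a (0.29 and -0.68), with intervals across 0. Not all 36 had enough cDNAs to compare, and they were named with earlier results known. Of the 710 loci compared for both proteins, 28 were called towards chromatin for SRSF3 and nucleoplasm for SRSF7, and 7 the reverse. That count needs both intervals beyond 2-fold, and the share of loci under the looser rule was not computed. Each protein has 1 pooled list per fraction, so the difference between the proteins was not tested. Rn45s, the pre-rRNA, had a log2 ratio of -0.83 for SRSF3 and 1.69 for SRSF7. Snord118, the U8 snoRNA, had -0.67 and 2.56, and Rmrp had -1.90 and 0.52. Sfpq had 1.64 for SRSF3 and -1.52 for SRSF7. The Snrpn region had 0.14 and -1.26, but its SRSF3 value was -1.28 by number of positions. Sfpq kept its direction by that count, at 0.60, and did not pass 2-fold. Mid1 had 5.21 for SRSF3 and -0.95 for SRSF7.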

How the results depend on the processing

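No paired analysis was possible because the replicates were pooled before deposit, which also prevents leaving any replicate out. The loci higher in chromatin numbered 131 with positions of at least 3 cDNAs, 131 by number of positions and 185 at a locus gap of 1000 nt. Those higher in nucleoplasm numbered 218 with positions of at least 3 cDNAs, 214 with chromatin thinned and 147 with at least 200 cDNAs per locus. Loci higher in chromatin were 35.2% of all called ones, 57.6% after thinning, 67.5% with at least 200 cDNAs per locus, 22.2% by positions and 22.7% at the 1000 nt gap. The mitochondrial fold was 39.3 with at least 3 cDNAs and 23.7 by positions. Nucleoplasm positions near a chromatin position were 35.0% at the same nucleotide, 67.0% within 30 nt, 70.1% with at least 3 cDNAs and 41.4% after thinning. Nucleoplasm clusters with a chromatin position were 41.1% at a gap of 10 nt, 48.5% at 100 nt, 53.6% with at least 3 cDNAs and 37.1% after thinning. The ratio for loci of 100 kb or more was 29.0 with at least 3 cDNAs, 7.02 by positions, 8.18 after leaving out the mitochondrial genome with the 10 highest loci, 12.02 with loci of the 2 SRSF3 lists and 11.96 with these joined anew after thinning. At a gap of 1000 nt no locus reached 100 kb, so it gave no value. The median difference at the highest position was 6.84 points with at least 3 cDNAs, 3.25 after thinning, 5.21 with at least 200 cDNAs per locus, 4.38 with loci of the 2 lists and 2 with each locus thinned to the lower of its 2 counts. The latter alternative and the joining anew were chosen after seeing the data. Leaving out the mitochondrial genome and the 10 highest loci lowered the log2 ratios of the remaining loci by 0.36. No named gene beyond 2-fold changed direction, but Sfpq (0.60) and Huwe1 (0.96) by number of positions and Eef1a1 (-0.93) with at least 3 cDNAs no longer passed it. Of genes within 2-fold, 5 turned by number of positions, to -1.65 for Malat1, -1.28 for Snrpn, -0.53 for Srsf7, -0.36 for Lin28a and -1.62 for Snhg1. Because a position counts once, that count can level off at densely listed RNAs, more so in the deeper chromatin list. Lin28a (-0.06) and Snhg1 (-0.22) turned without the highest loci, and Gas5 (0.23) and Srsf3 (0.39) with at least 3 cDNAs. Among alternatives chosen after seeing the data, mt-Rnr2 held 26.9 points more of the mitochondrial cDNAs in nucleoplasm but -16.5 points by number of positions; the cause was not tested. The first 4000 nt of Rn45s held 43.3 points more of chromatin cDNAs, and 8.62 points more of its positions. The mean difference in the last part of long loci lay between 12.7 and 14.1 points. The nucleoplasm list is the shallower one and limits most values.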

Other observations

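Chromosome X held 3.96% of chromatin cDNAs and 2.12% of nucleoplasm cDNAs, a share in nucleoplasm 0.536 times that in chromatin (0.523 to 0.55) and 0.686 times once mitochondrial RNA and the 10 highest loci were left out. Both values were the lowest of the chromosomes. The cytoplasm list, which is not part of the comparison, held 21.9% of its cDNAs at Rn45s, 1.68% at Rny3, 1.25% at Snord118 and 0.248% at Eif4g2, so that Eif4g2 was higher in nucleoplasm than in either neighbouring fraction. In cytoplasm 27.0% of Rn45s cDNAs lay in the first 4000 nt and 0.804% at nt 1200 to 2199.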
